A study of Rattus norvegicus with 9 samples.

Results

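The cytochrome P450 genes outside the Cyp2c subfamily were followed in rat liver cells, together with Por, the reductase that supplies their electrons. The genes were taken by symbol, as all names made of Cyp and a digit, without the Cyp2c genes and without the sterol and bile acid enzymes Cyp7a1, Cyp7b1, Cyp8b1, Cyp27a1 and Cyp51. This gave 57 P450 genes, of which Cyp2s1-ps1 is a pseudogene, and Por, 58 genes of the 14497 that the array measured with a probe set of their own. The rule used no measured value.

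P450 enzymes are haem proteins that insert an oxygen atom into drugs, steroids, fatty acids and vitamins. Most sit in the endoplasmic reticulum and draw electrons from NADPH through Por, sometimes with help from cytochrome b5, whereas the mitochondrial forms use a ferredoxin. The liver holds most of the body's drug-oxidising P450, and in rodents many of these genes are known to switch on around birth or during the weeks after it.

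RNA came from F344 rats and was read on Affymetrix Rat ST 1.0 arrays, with 3 arrays in each of 3 groups that the labels call biological replicates. Adult hepatocytes were released from the liver of rats aged 5 to 6 weeks by collagenase perfusion in steps. Both fetal groups were cells of the liver at embryonic day 19, freed with collagenase and immunopurified with antibodies to leucine aminopeptidase (LAP), a surface protein of hepatic cells, and to OC.2, a duct marker in the submitters' description. The OC.2- cells carry the label LAP+/OC.2- and the OC.2+ cells the label LAP+/OC.2+. The titles and cell type labels alone give this split, since the isolation text describes selection for both antigens in either fetal group and the description field names the OC.2+ samples LAP-OC2+. No group carried a transgene or a drug treatment, the adult cells were not immunopurified, and the labels do not give the sex of the animals or whether fetal livers were pooled. Among rat P450 genes Cyp3a2 and Cyp2a2 are known to be higher in adult males and Cyp3a9 in adult females, and a role of sex here was not tested.

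Levels are log2 intensities of 1 array, and a difference is the difference of 2 group means of log2 intensity. A gene was called when limma's adjusted p over all 14497 genes was under 0.05. Median log2 intensity over all genes was 6.587 to 6.722 on the 9 arrays, and the array median serves below as a mark of dim signal, because no detection call was available. In the adult cells 35 of the 58 genes lay above the median on all 3 arrays, in the OC.2- cells 16. On all 9 arrays 7 genes lay above it and 20 below it. In the OC.2+ cells Cyp1a2, Cyp2g1 and Cyp4f18 joined these 7 above the median on all 3 arrays. The matching shares of all genes were not computed. Intensities of different genes come from different probes and were not ranked against each other. Folds of dim genes are understated, and close relatives (Cyp2b1 and Cyp2b2, the Cyp2d, Cyp3a, Cyp4a and Cyp4f genes) can share probe signal. Within a group, arrays correlated over the 58 genes at 0.994 to 0.997 (adult), 0.987 to 0.988 (OC.2-) and 0.947 to 0.960 (OC.2+). The median standard deviation of the 58 genes was 0.086 in adult, 0.133 in OC.2- and 0.122 in OC.2+ cells on the log2 scale. By this measure the OC.2+ arrays were not the most variable. The number of arrays limits the precision.

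Marker genes of several cell types differed in intensity between the preparations. The 8 hepatocyte markers (Alb, Ttr, Tf, Apoa1, Asgr1, Serpina1, Hnf4a and Apoh) had a summed intensity of 67458.1 to 73343.6 on the adult arrays, 60305.7 to 64878.2 on the OC.2- arrays and 26339.9 to 29223.7 on the OC.2+ arrays. Such sums weigh the brightest genes most. Singly, 4 of the 8 were lower in OC.2- than in adult cells, among them Asgr1 (5.81-fold) and Hnf4a (2.20-fold). Apoa1 was 1.62-fold higher and 3 did not pass. In OC.2+ cells all 8 were lower than in adult cells. The 6 measured markers of red-cell precursors summed to 415.5 to 459.1 in adult, 10650.5 to 13181.4 in OC.2- and 26914.4 to 27465.5 in OC.2+ cells. The 7 granulocyte markers summed to 362.4 to 426.8, 422.5 to 476.5 and 13777.3 to 15396.3 in the same order. None of the granulocyte markers exceeded the array median on all arrays of the adult or the OC.2- group, and all 7 did in the OC.2+ group. Of 4 measured markers of sinusoidal endothelium all 4 were higher in OC.2- cells than in adult cells (median difference 1.80), and none of 5 biliary markers exceeded the median on all arrays of any group, although OC.2 is described as a duct marker. At this low intensity Krt19 was 1.90-fold higher than adult in OC.2- and 1.29-fold higher in OC.2+ cells. Cftr was also higher in both, and Epcam was lower in OC.2+ cells. Between the fetal groups only Krt19 of the 5 passed, 1.47-fold lower in OC.2+ cells. The 6 stellate and mesenchymal markers summed to 770.0 to 875.6 in adult cells. Their sum was 4187.4 to 4912.8 in OC.2- cells and 3134.6 to 3849.0 in OC.2+ cells. Most of the OC.2+ sum came from Vim (mean log2 intensity 11.48, beside 6.79 for Dcn). In OC.2- cells these means were 11.24 and 10.16. Against adult cells 5 of the 6 were higher in OC.2- cells, among them Dcn (20.2-fold) and Vim (17.2-fold). In OC.2+ cells 4 were higher, but only Vim by at least 2-fold (20.2-fold). Pdgfrb was lower than adult in both, 1.85-fold in OC.2- and 3.01-fold in OC.2+ cells. Of 6 macrophage markers 4 were higher in OC.2- cells and 3 in OC.2+ cells, and 1 was lower in each. In such bulk samples fewer cells of a type and less RNA per cell cannot be told apart, and the part of these marker shifts in the P450 differences was not tested.

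P450 genes were mostly lower in the fetal cells. In OC.2- cells 35 of the 58 genes were lower than in adult hepatocytes and 1, Cyp4b1, was higher, where 20.9% of all genes were lower and 23.7% higher. At least 2-fold lower were 28 of the 58, against 6.58% of all genes, and none was at least 2-fold higher, against 4.06% of all genes. The median difference was -0.84 for the 58 genes and 0.07 for all genes. In OC.2+ cells 35 genes were lower than in adult hepatocytes (23.4% of all genes) and 31 of them at least 2-fold (11.1% of all genes). Cyp4f18 alone was higher (32% of all genes), by less than 2-fold (7.82% of all genes at or above it), and the median difference was -1.34 for the 58 genes and 0.11 for all genes. Both comparisons use the same adult arrays. The scaling of the arrays moved the balance of calls over all genes. Higher genes were 53.1% of all genes called in OC.2- cells on the deposited values and 34.6% after median centring, and 57.8% in OC.2+ cells against 42.2% after cyclic loess, while the number of the 58 called lower was 35 in OC.2- cells under both and 35 and 38 in OC.2+ cells.

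**Figure D1:**
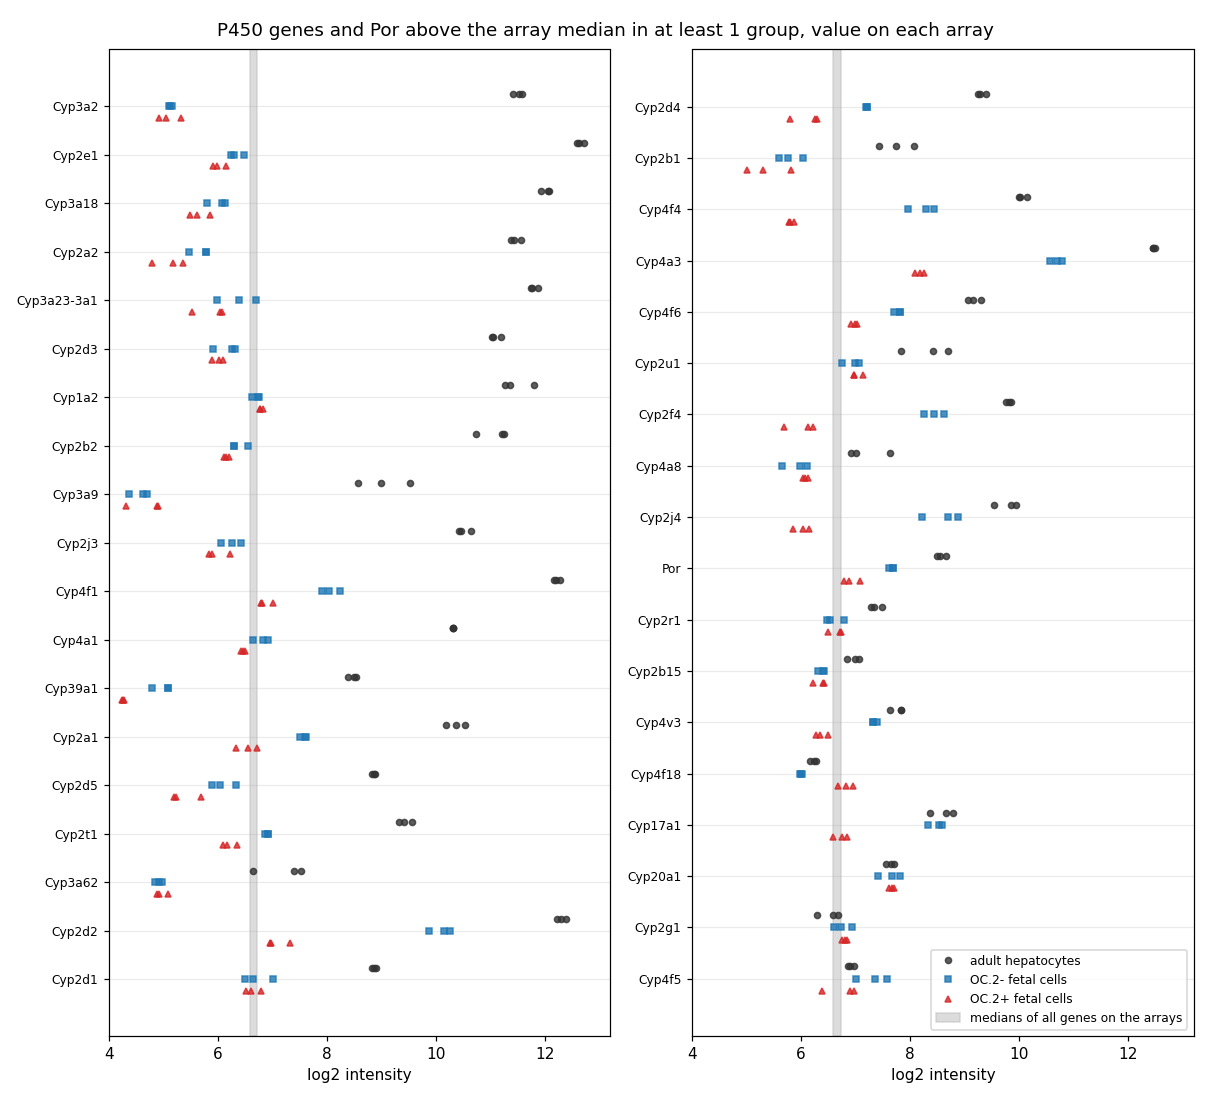
Log2 intensity on each array (x axis) of the P450 genes and Por that lay above the array median on all arrays of at least 1 group, sorted by the difference between OC.2- and adult cells. Circles are adult hepatocytes, squares OC.2- and triangles OC.2+ fetal cells, 3 arrays each, and the grey band spans the array medians of 6.587 to 6.722. For Cyp3a2, Cyp2e1 and Cyp3a18 both fetal groups sit far below the adult arrays, and for Cyp2d2, Cyp2f4 and Cyp2j4 the OC.2- arrays lie between the other groups.

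Por is the NADPH-dependent reductase on which most microsomal P450 enzymes rely. It was 8.65, 8.48 and 8.55 on the adult arrays, 7.69, 7.69 and 7.60 on the OC.2- arrays and 7.09, 6.88 and 6.79 on the OC.2+ arrays. The 3 groups formed 3 separate steps, with adult highest and OC.2+ lowest. Against adult cells Por was 1.87-fold lower in OC.2- cells (95% interval 1.63 to 2.14, adjusted p = 2.89e-06) and 3.13-fold lower in OC.2+ cells (95% interval 2.73 to 3.58, adjusted p = 3.55e-09). Between the fetal groups it was 1.67-fold lower in OC.2+ cells (95% interval 1.46 to 1.92, adjusted p = 1.78e-05). Por kept 53.5% of its adult intensity in OC.2- cells and 32.0% in OC.2+ cells.

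The 25 genes of the Cyp1, Cyp2 and Cyp3 drug oxidases held the largest falls. In each fetal group 20 of the 25 were lower than in adult hepatocytes, 18 of them at least 2-fold, none was higher and 5 did not pass (Cyp1a1, Cyp1b1, Cyp2a3, Cyp2b21 and Cyp2g1). Of all genes 20.9% were lower in OC.2- cells and 23.4% in OC.2+ cells, 6.58% and 11.1% by at least 2-fold. Higher were 23.7% and 32% of all genes. The median difference of the 25 was -2.28 in OC.2- cells and -3.49 in OC.2+ cells. All 5 Cyp3a and all 5 Cyp2d genes were lower in both fetal groups. Of the Cyp2b genes 4 of 5 were lower in both, but Cyp2b12 and Cyp2b15 by less than 2-fold.

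Cyp3a enzymes hydroxylate steroids and a wide range of drugs. Cyp3a2 was 11.57, 11.53 and 11.41 on the adult arrays, 5.15, 5.11 and 5.09 on the OC.2- arrays and 4.92, 5.31 and 5.04 on the OC.2+ arrays. Every adult array lay far above every fetal array, and the fetal groups overlapped below the array median. Cyp3a2 was 83.5-fold lower in OC.2- cells (95% interval 72.0 to 96.8, adjusted p = 1.03e-13) and 85.0-fold lower in OC.2+ cells (95% interval 73.3 to 98.5, adjusted p = 6.14e-14).

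Cyp3a18 was 12.08, 11.92 and 12.05 in adult cells, 6.12, 6.07 and 5.80 in OC.2- cells and 5.85, 5.48 and 5.61 in OC.2+ cells, 64.9-fold lower in OC.2- cells (95% interval 54.9 to 76.6, adjusted p = 3.85e-13) and 82.5-fold lower in OC.2+ cells (95% interval 69.8 to 97.4, adjusted p = 1.45e-13). Cyp3a23-3a1, the inducible rat form whose merged name joins 2 earlier genes, was 11.88, 11.76 and 11.75 in adult cells, 6.69, 5.97 and 6.38 in OC.2- cells and 6.08, 5.53 and 6.03 in OC.2+ cells. For both genes the adult arrays stood clear of all fetal arrays, while the fetal groups overlapped. Cyp3a23-3a1 was 43.7-fold lower in OC.2- cells (95% interval 33.8 to 56.6, adjusted p = 5.18e-11) and 60.4-fold lower in OC.2+ cells (95% interval 46.7 to 78.2, adjusted p = 6.66e-12). The remaining Cyp3a genes differed less in OC.2- cells, Cyp3a9 by -4.47 ± 0.21 (SE) and Cyp3a62 by -2.28 ± 0.18 on the log2 scale. Cyp3a9 also had the largest spread among adult arrays of all 58 genes, from 8.56 to 9.53.

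For the 3 Cyp3a genes with the largest falls in OC.2- cells, the stretch before the transcription start is shown. Each is the 250 bases before the RefSeq start, 5′ to 3′ on the strand of the gene, assembly GRCr8, with matches to 5 short motifs in capitals. Cyp3a2 lies at chr12:14343858-14344107 (minus strand), Cyp3a23-3a1 at chr12:14398804-14399053 (minus strand) and Cyp3a18 at chr12:13994062-13994311 (plus strand).
Cyp3a2: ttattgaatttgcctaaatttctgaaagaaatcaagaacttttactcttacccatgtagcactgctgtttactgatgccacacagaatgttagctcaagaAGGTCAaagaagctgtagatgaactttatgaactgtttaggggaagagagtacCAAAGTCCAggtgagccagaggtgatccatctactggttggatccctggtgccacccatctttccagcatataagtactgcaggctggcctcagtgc
Cyp3a23-3a1: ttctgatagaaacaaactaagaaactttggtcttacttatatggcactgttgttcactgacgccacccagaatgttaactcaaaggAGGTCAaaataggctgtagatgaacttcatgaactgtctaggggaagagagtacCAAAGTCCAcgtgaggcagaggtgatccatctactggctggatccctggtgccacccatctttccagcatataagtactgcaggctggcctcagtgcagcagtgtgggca
Cyp3a18: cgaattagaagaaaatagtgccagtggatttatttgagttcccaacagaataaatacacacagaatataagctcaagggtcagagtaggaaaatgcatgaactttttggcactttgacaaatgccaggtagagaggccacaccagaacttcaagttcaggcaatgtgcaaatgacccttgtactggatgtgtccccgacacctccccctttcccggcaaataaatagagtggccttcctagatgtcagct

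The windows of Cyp3a2 and Cyp3a23-3a1 were 79.2% identical in a global alignment and that of Cyp3a18 was 52.5% identical to Cyp3a2, close to the 41.6% to 51.6% of windows from different subfamilies. The motifs, searched on both strands and not contained in each other, were AGGTCA (the core bound by many nuclear receptors), CAAAGTCCA (a form of the HNF4 site), GTTAAT (part of the HNF1 site), GCGTG (the core bound by Ahr with Arnt) and TTCNNNGAA (the STAT site). Promoter windows were found for 47 of the 58 genes, 49 windows in all. CAAAGTCCA occurred in 2 of them, those of Cyp3a2 and Cyp3a23-3a1, which is 4.08%, and in 0.338% of the 33469 windows of all genes. AGGTCA occurred in 34.7% of the 49 and 14.1% of all windows. The shares were 8.16% and 6.45% for GTTAAT, 34.7% and 25.9% for GCGTG, and 12.2% and 7.67% for TTCNNNGAA. Related genes share such letters by descent, and a match describes the sequence without showing that a factor binds there.

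Cyp2e1, which oxidises ethanol and paracetamol and is known to be switched on after birth in the rat, was 12.59, 12.72 and 12.62 in adult cells, 6.30, 6.47 and 6.24 in OC.2- cells and 5.98, 6.14 and 5.91 in OC.2+ cells. All fetal arrays lay below the array median, with OC.2+ lowest. It was 79.1-fold lower in OC.2- cells (95% interval 69.1 to 90.5, adjusted p = 7.25e-14), and its fall in OC.2+ cells was the largest measured for any of the 58 genes (99.3-fold, 95% interval 86.7 to 114, adjusted p = 6.14e-14). Its window, at chr1:205269717-205269966 (plus strand), is shown for comparison with the Cyp3a genes and holds the nuclear receptor core but no HNF4 form.
Cyp2e1: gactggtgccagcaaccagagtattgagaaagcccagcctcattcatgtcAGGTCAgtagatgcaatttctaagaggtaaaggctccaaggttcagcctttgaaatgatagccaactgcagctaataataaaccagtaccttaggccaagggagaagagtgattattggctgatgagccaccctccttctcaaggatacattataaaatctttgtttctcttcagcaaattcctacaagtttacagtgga

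Cyp1a2, which oxidises caffeine and aromatic amines, was 11.27, 11.80 and 11.36 in adult cells, 6.75, 6.74 and 6.63 in OC.2- cells and 6.83, 6.77 and 6.76 in OC.2+ cells. The fetal values clustered near the array median. Cyp1a2 was 27.2-fold lower in OC.2- cells (95% interval 22.8 to 32.5, adjusted p = 5.39e-12) and 25.8-fold lower in OC.2+ cells (95% interval 21.6 to 30.8, adjusted p = 2.07e-12). Its relatives Cyp1a1 and Cyp1b1, known mainly from induced or extrahepatic tissue, lay below the median on all 9 arrays and did not pass in any comparison.

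Cyp2a2, a testosterone hydroxylase of adult male rat liver, was 11.56, 11.44 and 11.38 in adult cells, 5.78, 5.78 and 5.47 in OC.2- cells and 5.17, 4.79 and 5.35 in OC.2+ cells, 55.0-fold lower in OC.2- cells (95% interval 44.9 to 67.4, adjusted p = 3.40e-12) and 81.9-fold lower in OC.2+ cells (95% interval 66.9 to 100.3, adjusted p = 5.28e-13). Cyp2a1, another testosterone hydroxylase, was 10.36, 10.53 and 10.19 in adult cells, 7.60, 7.61 and 7.50 in OC.2- cells and 6.33, 6.55 and 6.70 in OC.2+ cells. For each gene the 3 groups did not overlap, but Cyp2a1 stayed above the array median in OC.2- cells and Cyp2a2 did not. Cyp2a1 was 6.92-fold lower in OC.2- cells (95% interval 5.88 to 8.15, adjusted p = 3.55e-10) and 14.2-fold lower in OC.2+ cells (95% interval 12.1 to 16.8, adjusted p = 5.70e-12).

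Cyp2b1 and Cyp2b2 are the phenobarbital-inducible P450 genes of rat liver. Cyp2b2 was 10.74, 11.24 and 11.21 in adult cells, 6.28, 6.29 and 6.55 in OC.2- cells and 6.11, 6.21 and 6.15 in OC.2+ cells, and all fetal arrays were far below the adult ones. It was 25.8-fold lower in OC.2- cells (95% interval 21.4 to 31.2, adjusted p = 1.19e-11) and 30.0-fold lower in OC.2+ cells (95% interval 24.8 to 36.3, adjusted p = 2.47e-12). The difference of Cyp2b1 in OC.2- cells was smaller, at -1.96 ± 0.20 on the log2 scale.

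The Cyp2d enzymes, relatives of the human debrisoquine hydroxylase, parted within their chromosome cluster. Cyp2d3 was 11.03, 11.19 and 11.05 in adult cells, 5.91, 6.25 and 6.30 in OC.2- cells and 5.88, 6.02 and 6.10 in OC.2+ cells, 30.6-fold lower in OC.2- cells (95% interval 26.0 to 35.9, adjusted p = 1.80e-12) and 34.1-fold lower in OC.2+ cells (95% interval 29.0 to 40.0, adjusted p = 5.18e-13). Cyp2d2 was 12.39, 12.22 and 12.30 in adult cells, 10.14, 10.26 and 9.87 in OC.2- cells and 7.31, 6.98 and 6.95 in OC.2+ cells. The fetal groups overlapped for Cyp2d3, whereas Cyp2d2 fell in 2 steps that did not overlap. Cyp2d2 was 4.63-fold lower in OC.2- cells (95% interval 3.88 to 5.54, adjusted p = 7.62e-09) and 37.3-fold lower in OC.2+ cells (95% interval 31.3 to 44.6, adjusted p = 8.19e-13). In OC.2- cells Cyp2d2 thus kept 21.6% of its adult intensity and Cyp2d3 3.27%. The differences of Cyp2d1, Cyp2d4 and Cyp2d5 in OC.2- cells were -2.15 ± 0.12, -2.11 ± 0.11 and -2.77 ± 0.14 on the log2 scale.

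Cyp2d2 and Cyp2d3 follow each other among the P450 genes of the cluster in assembly GRCr8. Their windows, printed because the 2 genes differed so much in OC.2- cells, lie at chr7:115819282-115819531 and chr7:115802143-115802392 (both minus strand) and were 42.9% identical. The HNF1 letters, in capitals, were found in that of Cyp2d2.
Cyp2d2: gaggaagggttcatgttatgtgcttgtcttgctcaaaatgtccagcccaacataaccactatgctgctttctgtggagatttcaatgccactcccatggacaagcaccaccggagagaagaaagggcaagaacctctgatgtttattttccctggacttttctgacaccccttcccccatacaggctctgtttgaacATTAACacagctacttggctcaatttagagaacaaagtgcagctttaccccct
Cyp2d3: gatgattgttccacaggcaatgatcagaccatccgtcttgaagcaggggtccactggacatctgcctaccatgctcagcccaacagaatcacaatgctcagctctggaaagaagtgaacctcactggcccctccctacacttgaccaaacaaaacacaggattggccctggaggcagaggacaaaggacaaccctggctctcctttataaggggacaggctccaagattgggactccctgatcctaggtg

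Cyp2f4, which activates naphthalene and is best known from lung, kept 38.7% of its adult intensity in OC.2- cells. It was 9.81, 9.76 and 9.84 in adult cells, 8.44, 8.62 and 8.25 in OC.2- cells and 6.12, 6.22 and 5.68 in OC.2+ cells, with no overlap between groups. It was 2.58-fold lower in OC.2- cells (95% interval 2.12 to 3.16, adjusted p = 2.22e-06) and 13.9-fold lower in OC.2+ cells (95% interval 11.4 to 17.0, adjusted p = 3.96e-11). Cyp2a2 precedes it among the P450 genes of its chromosome cluster and fell 55.0-fold in OC.2- cells.

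The Cyp2j genes encode epoxygenases of arachidonic acid. Cyp2j3 and Cyp2j4 were lower in both fetal groups and the dim Cyp2j10 did not pass (difference -0.02 in OC.2- cells, 95% interval -0.23 to 0.19). Cyp2j3 was 10.65, 10.43 and 10.46 in adult cells, 6.42, 6.05 and 6.25 in OC.2- cells and 6.21, 5.83 and 5.89 in OC.2+ cells. Cyp2j4 was 9.85, 9.53 and 9.94 in adult cells, 8.69, 8.88 and 8.22 in OC.2- cells and 6.15, 5.84 and 6.04 in OC.2+ cells. Cyp2j3 lay below the array median on every fetal array, whereas the OC.2- arrays of Cyp2j4 lay between the other groups. In OC.2- cells Cyp2j3 was 19.3-fold lower (95% interval 16.1 to 23.2, adjusted p = 1.83e-11) and Cyp2j4 2.26-fold lower (95% interval 1.78 to 2.86, adjusted p = 4.07e-05). In OC.2+ cells Cyp2j3 was 23.2-fold lower (95% interval 19.4 to 27.8, adjusted p = 3.16e-12) and Cyp2j4 13.6-fold lower (95% interval 10.7 to 17.2, adjusted p = 2.09e-10). The windows of these neighbours, at chr5:116360500-116360749 for Cyp2j3 and chr5:116323043-116323292 for Cyp2j4 (both minus strand), were 43.0% identical, and the STAT letters were found in that of Cyp2j4.
Cyp2j3: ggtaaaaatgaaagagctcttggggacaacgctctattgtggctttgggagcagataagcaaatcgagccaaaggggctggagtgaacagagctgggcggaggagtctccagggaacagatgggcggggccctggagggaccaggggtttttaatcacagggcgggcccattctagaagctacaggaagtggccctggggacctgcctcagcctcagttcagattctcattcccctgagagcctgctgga
Cyp2j4: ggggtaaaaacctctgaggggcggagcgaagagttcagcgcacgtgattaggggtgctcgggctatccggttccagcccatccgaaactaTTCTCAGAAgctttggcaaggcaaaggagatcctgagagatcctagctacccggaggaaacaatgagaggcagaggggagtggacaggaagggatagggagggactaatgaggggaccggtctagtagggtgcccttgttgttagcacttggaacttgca

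The enzymes of the 10 Cyp4a, Cyp4b and Cyp4f genes hydroxylate the ends of fatty acids and eicosanoids. In OC.2- cells 8 of the 10 genes were lower and 1 higher (20.9% and 23.7% of all genes). In OC.2+ cells 7 of these genes were lower and 1 higher (23.4% and 32% of all genes). Their median difference from adult cells was -1.34 in OC.2- cells and -1.65 in OC.2+ cells. The 3 Cyp4a genes, known targets of the fatty acid receptor Ppara, were lower in both fetal groups. Cyp4a3 was 12.46, 12.49 and 12.46 in adult cells, 10.69, 10.78 and 10.56 in OC.2- cells and 8.25, 8.18 and 8.08 in OC.2+ cells. The groups stood apart and all 9 arrays were well above the median. Cyp4a3 was 3.47-fold lower in OC.2- cells (95% interval 3.07 to 3.92, adjusted p = 1.52e-09) and 19.7-fold lower in OC.2+ cells (95% interval 17.4 to 22.3, adjusted p = 2.25e-13). Its neighbour Cyp4a1 differed by -3.52 ± 0.08 in OC.2- cells and Cyp4a8 by -1.27 ± 0.17.

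Cyp4f1 was 12.16, 12.27 and 12.20 in adult cells, 8.03, 8.24 and 7.90 in OC.2- cells and 6.80, 7.01 and 6.78 in OC.2+ cells, 17.8-fold lower in OC.2- cells (95% interval 15.4 to 20.6, adjusted p = 3.80e-12) and 40.7-fold lower in OC.2+ cells (95% interval 35.1 to 47.2, adjusted p = 2.01e-13). Cyp4f4 was 10.14, 9.99 and 10.02 in adult cells, 8.30, 8.43 and 7.96 in OC.2- cells and 5.86, 5.77 and 5.79 in OC.2+ cells. Both genes formed 3 separate levels, and in OC.2+ cells Cyp4f1 ended just above the array median and Cyp4f4 below it. Cyp4f4 was 3.54-fold lower in OC.2- cells (95% interval 3.00 to 4.17, adjusted p = 2.35e-08) and 18.9-fold lower in OC.2+ cells (95% interval 16.1 to 22.3, adjusted p = 2.52e-12). Cyp4f6 differed by -1.40 ± 0.08 in OC.2- cells and -2.19 ± 0.08 in OC.2+ cells.

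Some members of this role went the other way, by small amounts and at low intensity. Cyp4f18, whose mouse counterpart hydroxylates leukotrienes in neutrophils, was 6.24, 6.26 and 6.15 in adult cells, 5.99, 6.02 and 6.00 in OC.2- cells and 6.82, 6.95 and 6.68 in OC.2+ cells. It lay below the array median on every adult and OC.2- array and above it on every OC.2+ array. It was 1.52-fold higher in OC.2+ cells than in adult cells (95% interval 1.34 to 1.72, adjusted p = 3.58e-05). In OC.2- cells it was 1.16-fold lower than in adult cells (95% interval 1.03 to 1.32, adjusted p = 0.0481), a call lost when any array of that comparison except adult replicate 3 was left out (adjusted p up to 0.117), with a trended and robust variance (adjusted p = 0.0519) and with the replicate block (adjusted p = 0.0550). On the same arrays all 7 granulocyte markers were higher in OC.2+ than in adult cells (median difference 4.55), and the part of these cells in the rise was not tested.

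Cyp4b1, which acts on fatty acids and some lung toxicants, was 6.32, 6.16 and 6.36 in adult cells, 6.95, 6.51 and 6.75 in OC.2- cells and 6.25, 5.89 and 5.81 in OC.2+ cells. The OC.2- arrays were the highest without overlap. It was 1.37-fold higher in OC.2- than in adult cells (95% interval 1.13 to 1.67, adjusted p = 0.0116), a call lost without OC.2- replicate 1 (adjusted p = 0.0576) and after quantile normalization (adjusted p = 0.0584) or median centring (adjusted p = 0.0589). In OC.2+ cells its difference from adult cells was -0.29 (95% interval -0.58 to -0.01, adjusted p = 0.0743), a difference called lower after quantile normalization (-0.44, adjusted p = 0.0138), median centring (-0.43, adjusted p = 0.0148) or cyclic loess (-0.45, adjusted p = 0.0127), with the replicate block (adjusted p = 0.0318) and without OC.2+ replicate 1 (-0.43, adjusted p = 0.0134). Cyp4f5 missed the threshold in OC.2- cells (difference 0.40, 95% interval 0.06 to 0.75, adjusted p = 0.0547).

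**Figure D2:**
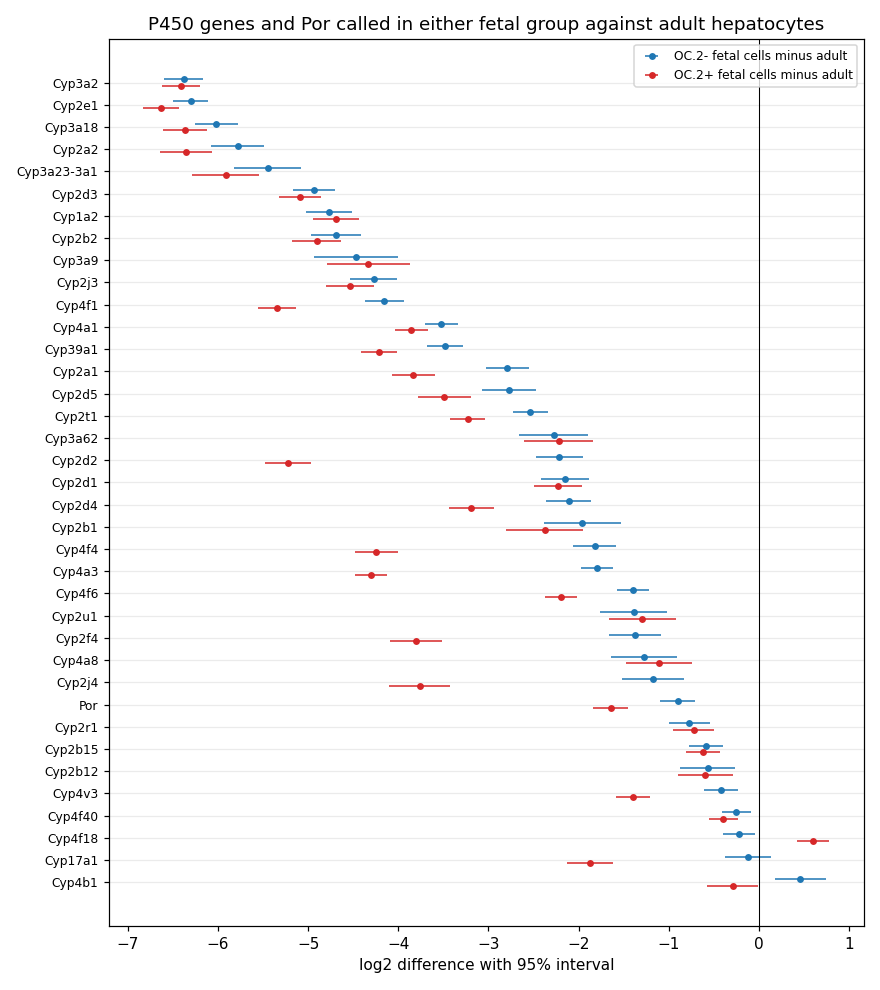
Log2 difference from adult hepatocytes (x axis) with 95% intervals for each P450 gene, and Por, called in at least 1 fetal group, sorted by the difference in OC.2- cells (blue) with OC.2+ cells in red. Both fetal groups share the adult arrays. The points of the 2 groups nearly coincide for Cyp3a2, Cyp1a2 and Cyp3a9 and lie far apart for Cyp2d2, Cyp2j4, Cyp4a3, Cyp2f4 and Cyp4f4.

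The P450 genes of steroid hormone synthesis, which act mainly in the adrenal gland and gonads, did not pass in OC.2- cells, and only Cyp17a1 of the 6 passed in OC.2+ cells. Cyp17a1 makes androgen precursors by hydroxylation and bond cleavage, and its array values are given although it lies outside the naming rule, having been picked after its values were seen. They were 8.78, 8.35 and 8.66 in adult cells, 8.52, 8.59 and 8.33 in OC.2- cells and 6.59, 6.84 and 6.76 in OC.2+ cells. Adult and OC.2- arrays overlapped and all OC.2+ arrays were lower. The difference of OC.2- from adult cells was -0.12 (95% interval -0.37 to 0.13, adjusted p = 0.429), and OC.2+ cells were 3.66-fold lower than adult cells (95% interval 3.08 to 4.36, adjusted p = 1.25e-08). Cyp11a1, Cyp11b1, Cyp11b2, Cyp11b3 and Cyp21a1 lay below the array median on all 9 arrays.

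Among the 5 genes of vitamin D and retinoid metabolism, Cyp2r1, the vitamin D hydroxylase of liver, was 1.71-fold lower in OC.2- cells (95% interval 1.46 to 2.00, adjusted p = 4.55e-05) and 1.65-fold lower in OC.2+ cells (95% interval 1.41 to 1.93, adjusted p = 5.16e-05). Cyp24a1 and Cyp27b1, known from kidney, and Cyp26a1 and Cyp26b1, which clear retinoic acid, were below the array median throughout and did not pass. Of the 2 oxysterol hydroxylases Cyp39a1, a liver enzyme, was 11.2-fold lower in OC.2- cells (95% interval 9.74 to 12.8, adjusted p = 8.94e-12) and 18.5-fold lower in OC.2+ cells (95% interval 16.2 to 21.3, adjusted p = 5.80e-13). Cyp46a1, the cholesterol hydroxylase of neurons, was dim and did not pass.

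Of the 6 members of less settled role, Cyp2u1 and Cyp4v3 were lower in both fetal groups. Cyp2u1, a fatty acid hydroxylase, was similar in size in both, 2.62-fold lower in OC.2- cells (95% interval 2.02 to 3.39) and 2.45-fold lower in OC.2+ cells (95% interval 1.90 to 3.18). Cyp4v3 was 1.34-fold lower in OC.2- cells (95% interval 1.17 to 1.53) and 2.62-fold lower in OC.2+ cells (95% interval 2.30 to 2.99). Cyp20a1, which has no settled substrate, stayed above the array median on all 9 arrays, and its difference was -0.0042 in OC.2- cells (95% interval -0.22 to 0.21) and 0.03 in OC.2+ cells (95% interval -0.19 to 0.25). Cyp2s1, Cyp2s1-ps1 and Cyp4x1 were dim throughout. In all, 20 of the 58 genes passed in none of the 3 comparisons, and 18 of these 20 lay below the array median on all 9 arrays, the exceptions being Cyp20a1 and Cyp2g1. The share of all genes that passed in none was not computed. Taken singly, 22 of the 58 did not pass in OC.2- cells, 22 in OC.2+ cells and 35 between the fetal groups. Of all 14497 genes 8039, 6463 and 8921 did not pass in the same order.

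The depth of the fall from adult level varied widely. Of the 35 genes lower in OC.2- cells, 9 kept under 5% of their adult intensity (Cyp1a2, Cyp2a2, Cyp2b2, Cyp2d3, Cyp2e1, Cyp3a2, Cyp3a9, Cyp3a18 and Cyp3a23-3a1), 11 kept 5% to 25%, 8 kept 25% to 50% and 7 kept more. In OC.2+ cells the counts were 12, 14, 5 and 4, with Cyp2d2, Cyp2j3 and Cyp4f1 joining the same 9 genes in the lowest class. Genes of 1 chromosome cluster spread over these classes. The 5 Cyp2d genes ranged from -4.93 to -2.11 in OC.2- cells, the 5 Cyp3a genes from -6.38 to -2.28, the 3 Cyp2j genes from -4.27 to -0.02 and the 13 genes from Cyp2s1 to Cyp2t1 from -5.78 to 0.24.

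Set directly against each other, the fetal groups differed in fewer of these genes. In OC.2+ cells 22 of the 58 were lower than in OC.2- cells, where 18.2% of all genes were lower, and 9 were at least 2-fold lower, against 6.63% of all genes. Cyp4f18 alone was higher (20.3% of all genes), by less than 2-fold (3.69% of all genes at or above it). The median difference was -0.12 for the 58 genes and 0.04 for all genes. The 9 were Cyp2d2, Cyp2j4, Cyp4a3, Cyp2f4, Cyp4f4, Cyp17a1, Cyp4f1, Cyp2d4 and Cyp2a1. Smaller falls included those of Cyp2a2, Cyp2d5, Cyp2e1, Cyp39a1, Cyp3a18 and Cyp3a23-3a1, which lay below the array median on all OC.2- arrays. For 15 genes lower than adult in both fetal groups no difference between the fetal groups passed, and 11 of these 15 were below the array median on all fetal arrays, where a further fall would be understated. How many of all genes share this pattern was not computed.

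Cyp2d2 had the largest difference, 8.06-fold lower in OC.2+ cells (95% interval 6.74 to 9.63, adjusted p = 6.10e-10). Cyp2j4 followed at 6.02-fold (95% interval 4.76 to 7.61, adjusted p = 2.52e-08) and Cyp4a3 at 5.68-fold (95% interval 5.03 to 6.42, adjusted p = 1.52e-10). Cyp2f4 was 5.39-fold lower (95% interval 4.41 to 6.58, adjusted p = 1.02e-08) and Cyp4f4 5.36-fold lower (95% interval 4.54 to 6.31, adjusted p = 1.94e-09). Their array values, given above, show no overlap between the fetal groups, and the intervals of Cyp2j4, Cyp4a3, Cyp2f4 and Cyp4f4 overlap one another. Smaller falls were those of Cyp17a1 (difference -1.75 ± 0.12), Cyp4f1 (-1.19 ± 0.10), Cyp2d4 (-1.08 ± 0.11), Cyp2a1 (-1.04 ± 0.11) and Cyp4v3 (-0.97 ± 0.09). Cyp4f18 was 1.76-fold higher in the OC.2+ than in the OC.2- group (95% interval 1.56 to 2.00, adjusted p = 3.41e-06).

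Genes with large falls from adult level in both fetal groups went different ways between them. Beside Cyp2d2 and Cyp4f1, Cyp2a2 was 1.49-fold lower in OC.2+ cells without overlap (95% interval 1.22 to 1.82, adjusted p = 0.00374). The difference of Cyp3a2 was -0.03 (95% interval -0.24 to 0.19, adjusted p = 0.885) and that of Cyp1a2 0.08 (95% interval -0.18 to 0.33, adjusted p = 0.679). Cyp3a23-3a1 (difference -0.47, adjusted p = 0.0471) and Cyp3a18 (difference -0.35, adjusted p = 0.0240) were called lower in OC.2+ cells although their arrays overlapped. The Cyp3a23-3a1 call was lost when OC.2- replicate 1 or 3 or OC.2+ replicate 2 or 3 was left out (adjusted p up to 0.226), and the Cyp3a18 call without OC.2- replicate 1 or 2 or OC.2+ replicate 2 or 3 (adjusted p up to 0.116). The Cyp2e1 difference of -0.33 (adjusted p = 0.0100) was lost without OC.2+ replicate 3 (adjusted p = 0.0503), and the Cyp2d3 difference of -0.16 (adjusted p = 0.313) passed without OC.2- replicate 1 (difference -0.28, adjusted p = 0.0427).

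Beside these falls, all 8 hepatocyte markers were lower in the OC.2+ group than in the OC.2- group, by differences from -2.80 to -0.32 with a median of -1.80. All 7 granulocyte markers were higher, with a median difference of 4.31, and all 6 red-cell markers, with a median of 1.72. All 4 endothelial markers were at least 2-fold lower, with a median of -2.37, and 5 of 6 stellate and mesenchymal markers were lower, Dcn by the most (-3.37). None of 6 macrophage markers passed. Among the hepatocyte markers, albumin differed by -0.32 ± 0.08 and Hnf4a by -2.60 ± 0.10. The part of the cell mixture in the P450 differences between the fetal groups was not tested.

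**Figure D3:**
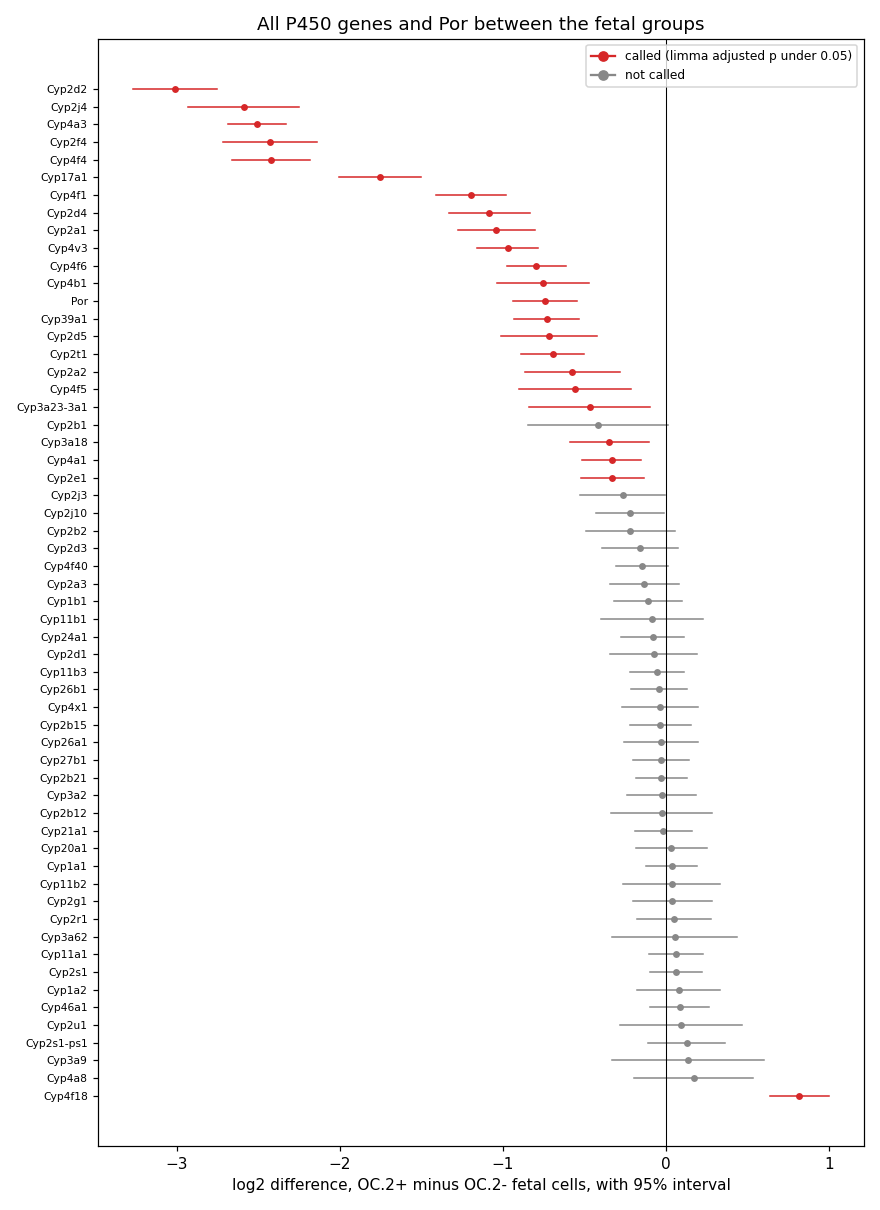
Log2 difference of OC.2+ minus OC.2- fetal cells (x axis) with 95% intervals for all 57 P450 genes and Por, 3 arrays a group. Red marks the 22 genes called lower and Cyp4f18, called higher, and grey the rest. Cyp2d2 at -3.01 heads a group of 5 genes below -2, and most grey points lie close to 0.

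The genes that serve or regulate P450 enzymes were measured on the same arrays, 25 of 26 listed, Fdxr having no single-gene probe set. In OC.2- cells 20 of the 25 were lower than in adult cells and 2 higher (20.9% and 23.7% of all genes). In OC.2+ cells 23 were lower and 1 higher (23.4% and 32% of all genes), and between the fetal groups 15 were lower and 2 higher in OC.2+ cells (18.2% and 20.3% of all genes). The median differences were -1.06, -1.77 and -0.72, beside 0.07, 0.11 and 0.04 for all genes.

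All 6 measured genes of the electron transfer list, which holds electron carriers, Cyb5r3 and the P450-associated Pgrmc1 and Pgrmc2, were lower in both fetal groups than in adult cells. Of all genes 20.9% were lower in OC.2- cells and 23.4% in OC.2+ cells. In OC.2- cells cytochrome b5 (Cyb5a) was 2.02-fold lower (adjusted p = 1.20e-06), and in OC.2+ cells 4.39-fold lower (adjusted p = 2.95e-10). Pgrmc1, a haem-binding membrane protein that associates with P450 enzymes, was 3.95-fold lower in OC.2- cells (adjusted p = 2.36e-09) and 19.5-fold lower in OC.2+ cells (adjusted p = 6.49e-13). Fdx1, the mitochondrial ferredoxin, differed least, by -0.38 ± 0.13 in OC.2- cells. Cyb5r3, the reductase of cytochrome b5, was 1.55-fold higher in the OC.2+ than in the OC.2- group (adjusted p = 9.40e-05).

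Alas1, which starts haem synthesis in liver, was 2.08-fold lower in OC.2- cells (adjusted p = 1.23e-05) and 1.59-fold lower in OC.2+ cells (adjusted p = 4.39e-04). Hmox1, the inducible haem oxygenase that breaks haem down, went the other way, 3.27-fold higher in OC.2- cells (adjusted p = 2.48e-07) and 1.98-fold higher in OC.2+ cells (adjusted p = 2.54e-05). Hmox2, the other haem oxygenase measured, was 1.75-fold lower in OC.2- cells (adjusted p = 1.12e-05) and 2.49-fold lower in OC.2+ cells (adjusted p = 4.84e-08). The microsomal epoxide hydrolase Ephx1, which opens epoxides made by P450 enzymes, was 2.87-fold lower in OC.2- cells (adjusted p = 8.86e-08) and 24.9-fold lower in OC.2+ cells (adjusted p = 8.16e-13), so its largest step lay between the fetal groups (8.68-fold, adjusted p = 1.90e-10). Ephx2, the soluble form, did not pass in OC.2- cells (difference 0.18 ± 0.16, adjusted p = 0.401) and was 2.63-fold lower in OC.2+ cells (adjusted p = 8.38e-06).

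Of 14 receptors and transcription factors known to act on P450 genes, 11 were lower and 1 higher in OC.2- cells (20.9% and 23.7% of all genes). In OC.2+ cells 13 of the 14 were lower (23.4% of all genes). Nr1i3 (CAR), which mediates the phenobarbital response of Cyp2b genes, was 3.49-fold lower in OC.2- cells (adjusted p = 6.14e-07) and 4.04-fold lower in OC.2+ cells (adjusted p = 9.70e-08). Nr1i2 (PXR), the drug sensor of Cyp3a genes, was 2.02-fold lower in OC.2- cells (adjusted p = 3.25e-06) and 5.42-fold lower in OC.2+ cells (adjusted p = 2.27e-10). Ppara was 1.83-fold higher in OC.2- than in adult cells (adjusted p = 1.21e-04) and 3.37-fold lower in OC.2+ than in adult cells (adjusted p = 8.83e-08). Between the fetal groups Ppara was 6.15-fold lower in OC.2+ cells (adjusted p = 4.64e-09). Cyp4a3 was lower than adult in both fetal groups, and a link of Ppara to its level was not tested. Hnf4a was 2.20-fold lower in OC.2- cells (adjusted p = 6.26e-07) and 13.4-fold lower in OC.2+ cells (adjusted p = 2.55e-12). The corepressor Nr0b2 was 7.79-fold lower in OC.2- cells (adjusted p = 9.92e-11) and 6.83-fold lower in OC.2+ cells (adjusted p = 5.24e-11). Ahr, the dioxin receptor that controls Cyp1 genes, was 1.71-fold lower in OC.2- cells (adjusted p = 5.18e-04) and 4.02-fold lower in OC.2+ cells (adjusted p = 4.30e-08), and its partner Arnt 1.51-fold and 1.40-fold lower. Ahrr was dim and did not pass.

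**Figure D4:**
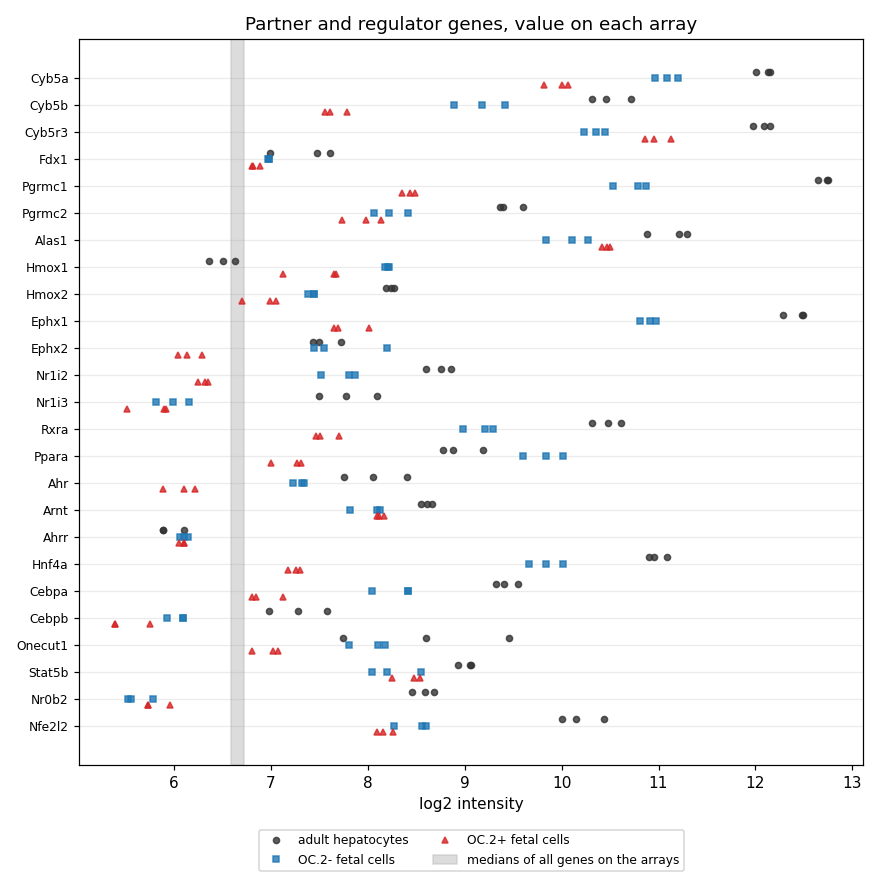
Log2 intensity on each array (x axis) of the 25 measured partner and regulator genes, with circles for adult hepatocytes, squares for OC.2- and triangles for OC.2+ fetal cells and the grey band for the array medians. Ppara and Hmox1 are the 2 genes whose OC.2- arrays lie above the adult arrays, and Ephx1, Pgrmc1 and Hnf4a show 3 well separated levels.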

How the data were processed

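Each of 9 preparations of rat liver cells gave 150 ng of total RNA for 1 Affymetrix Rat ST 1.0 array, extracted with the mirVana kit, per the labels' protocols. The authors deposited linear intensities. The submitters' processing notes name Partek 6.6 and RMA without role or order. RMA as usually run makes arrays alike and shrinks differences of dim genes. Genome build and annotation: not given in the sources used here.

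Of 28826 rows, 15209 had 1 gene symbol in the platform annotation, 306 several and 13311 none. Log2 was taken, and a gene with several rows (494 genes, none of the 58) was represented by the row with the highest mean. Groups follow the titles. Group means were fitted to all 9 arrays with limma 3.58.1 (R 4.3.3, lmFit and eBayes, 6 residual degrees of freedom, 2-sided tests), with Benjamini-Hochberg adjustment over 14497 genes and calls under 0.05. The fit was tested on simulated data. Single-gene permutation tests were not used, since 3 arrays against 3 cannot go below p = 0.10 (exact test).

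Members, roles and lists were chosen with earlier results of these data known. Array values are given for Por, the 10 members with the highest mean, and called members without overlap between groups: the 8 lowest and 5 highest differences of each comparison with adult cells and the 5 lowest and 5 highest between the fetal groups. Values of Cyp2j3 and Cyp17a1 were added after they were seen. Promoter windows come from RefSeq (GRCr8), trimmed to 250 bases before the start and aligned with Biopython 1.88. All 58 symbols were found in the RefSeq gene table. Alternatives covered scaling, a filter on dim genes, the mean of rows, the variance model, the samples fitted, the replicate block and leaving out each array.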

Additional observations from a re-analysis of the deposited data

Results flagged for a closer look

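Cyp4f18 was called on opposite sides of adult hepatocytes in the 2 fetal groups, lower in OC.2- cells and higher in OC.2+ cells. The difference itself was tested in limma: OC.2+ minus OC.2- was 0.82 ± 0.08 on the log2 scale (95% interval 0.64 to 1.00, adjusted p = 3.41e-06), with all 3 OC.2+ arrays above all 3 OC.2- arrays. This difference was called in every alternative run. The lower call in OC.2- cells (difference -0.22, adjusted p = 0.0481) was lost without adult replicate 1 or 2 or any OC.2- replicate (adjusted p up to 0.117), with a trended and robust variance (adjusted p = 0.0519) and with the replicate block (adjusted p = 0.0550), and the gene was below the array median on all adult and OC.2- arrays.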

How the results depend on the processing

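Across other scalings, a filter on dim genes, the mean of rows, another variance model, fits of only the groups compared and fits without 1 array, the number of the 58 genes called lower stayed at 32 to 35 in OC.2- cells, 32 to 39 in OC.2+ cells and 20 to 24 between the fetal groups, beside 35, 35 and 22. Among the named genes no called difference changed sign. Between the fetal groups the uncalled differences of Cyp3a2 (-0.03) and Cyp1a2 (0.08) did. That of Cyp3a2 ranged from -0.136 to 0.0581 without 1 array (0.0581 without OC.2+ replicate 1), and that of Cyp1a2 was -0.0152 after cyclic loess. The filter on dim genes left 36 of the 58. It kept any gene above the median of all values on at least 3 of the 9 arrays. The 3 adult arrays alone could meet this, which favours genes that are lower in fetal cells. The counts of 32 under this filter are thus no separate support for the falls. The counts of higher genes are small and moved in part. In OC.2- cells against adult cells the count was 1 on the deposited values, 0 after quantile normalization or median centring, 2 with a trended and robust variance or only the groups compared, and 0 to 3 without 1 array (0 without OC.2- replicate 1, 3 without OC.2- replicate 3). In OC.2+ cells against adult cells it was 1, and 2 with dim genes left out, with a trended and robust variance or with only the groups compared, and 1 to 2 without 1 array. The cause of these moves was not tested. Among the recalculated values of named genes 725 kept their direction and side of the threshold, 20 lost a call and 6 gained one. The median difference of all genes in OC.2- cells moved from 0.07 to -0.06 after median centring, and in OC.2+ cells from 0.11 to -0.03. Replicates of the same number did not deviate together (correlations -0.226 to 0.106), and with the replicate block 34, 37 and 23 genes were lower and 1, 1 and 1 higher. Without a detection call, low intensity cannot show whether a gene was expressed.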
